A study of Homo sapiens with 14 samples.

Results

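The core circadian clock genes were followed through 14 RNA-seq libraries of SCC23, an established head and neck squamous cell carcinoma (HNSCC) line. They were PER1, PER2, PER3, CRY1, CRY2, ARNTL, CLOCK, NR1D1, NR1D2 and DBP, taken by gene name, so that 10 of the 59471 gene names in the count files were members and 39032 names had a count in any library. KMT2D, whose loss the study examined, encodes a histone methyltransferase that places H3K4 methyl marks on enhancers. KMT2D-WT cells had received the LacZ guide RNA control plasmid, and the CRISPR-Cas9 KMT2D-KO lines KO1 and KO2 different KMT2D guide RNAs. Cells of both genotypes were sorted for GFP, with no step of single-cell cloning described. Cells were kept in high glucose (+Glc) or without glucose for 6 h (-Glc), which gave 3 KMT2D-WT and 4 KMT2D-KO libraries in each glucose condition over 2 experiments. No hour of the day is given for any harvest, so differences in clock phase between libraries cannot be told apart from differences in level.

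The mammalian clock is a transcriptional feedback loop that runs in most cell types, epithelial cells included. CLOCK and ARNTL (also called BMAL1) form the activating pair that binds E-boxes and drives the PER, CRY, NR1D and DBP genes. PER and CRY proteins return to the nucleus and repress that pair, while NR1D1 and NR1D2 (REV-ERB alpha and beta) repress ARNTL through ROR elements and DBP activates through D-boxes. PER2 has been named among the genes that depend on KMT2D in lung tumours, which is the question behind its comparison between genotypes here.

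Windows around the annotated start sites were searched for these elements, and those of PER1, PER2, ARNTL and NR1D2 are printed. All 10 members matched RefSeq promoter windows of GRCh38.p14, 15 windows in all, with ARNTL listed under its other symbol. The 4 sequences printed run from 250 bases before the start site through the first 30 bases of the transcript, on the strand of the gene. Capitals mark the matches found by searching both strands for the E-box CACGTG, the E'-box CACGTT, the D-box TTATGTAA, the cyclic AMP response element (CRE) TGACGTCA and the ROR element TAGGTNA.
PER1, chr17:8152375-8152654, minus strand: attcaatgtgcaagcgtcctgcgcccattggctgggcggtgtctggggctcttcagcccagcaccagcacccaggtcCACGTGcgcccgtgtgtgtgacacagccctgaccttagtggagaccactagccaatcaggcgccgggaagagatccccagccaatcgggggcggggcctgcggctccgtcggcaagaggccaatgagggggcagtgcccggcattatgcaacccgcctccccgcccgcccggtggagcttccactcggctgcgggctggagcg
PER2, chr2:238288581-238288860, minus strand: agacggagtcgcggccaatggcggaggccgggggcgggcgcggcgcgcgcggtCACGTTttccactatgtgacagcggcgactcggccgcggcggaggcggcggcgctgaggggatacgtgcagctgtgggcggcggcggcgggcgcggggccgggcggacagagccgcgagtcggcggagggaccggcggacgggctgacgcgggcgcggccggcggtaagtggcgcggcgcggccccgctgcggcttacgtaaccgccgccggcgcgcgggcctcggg
ARNTL, chr11:13277540-13277819, plus strand: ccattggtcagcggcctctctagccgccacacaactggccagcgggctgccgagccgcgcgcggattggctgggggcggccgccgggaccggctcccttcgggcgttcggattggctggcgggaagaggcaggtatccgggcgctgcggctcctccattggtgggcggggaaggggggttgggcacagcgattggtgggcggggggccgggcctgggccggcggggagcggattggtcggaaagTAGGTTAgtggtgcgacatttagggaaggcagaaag
NR1D2, chr3:23945871-23946150, plus strand: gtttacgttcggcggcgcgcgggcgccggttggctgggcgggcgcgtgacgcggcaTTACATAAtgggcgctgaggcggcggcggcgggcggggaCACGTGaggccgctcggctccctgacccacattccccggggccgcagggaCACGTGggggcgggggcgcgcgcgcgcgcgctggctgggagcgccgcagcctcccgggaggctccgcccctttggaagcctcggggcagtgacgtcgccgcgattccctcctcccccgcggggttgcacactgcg
PER1 held an E-box 173 bases before its start and PER2 an E'-box 197 bases before its own. The ARNTL window held a ROR element 6 bases before the start and another 30 bases after it, just beyond the printed stretch. The second NR1D2 window held E-boxes 155 and 105 bases before the start and a D-box 194 bases before it, whereas its first window held none of the motifs. The DBP window and the second ARNTL window held none of the motifs, and the second CLOCK window held an E'-box 187 bases before the start. Over all windows of the members, E-boxes were found in 2 members, E'-boxes in 5, D-boxes in 2, ROR elements in 2 and the palindromic CRE in 0. Among all 35116 windows of the same length, 7.26% held the E-box, 5.34% the E'-box, 0.886% the D-box, 6.52% the ROR element and 1.85% the CRE. A match is a stretch of letters and was not tested for binding in these cells.

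Library totals ran from 15669154 to 62968057 counts. The 4 +Glc libraries of experiment 2 carried both mates of each read pair in their counts: 67.4 to 70.6% of their counts between 1 and 10 were even, against 37.4 to 42.7% elsewhere. KMT2D itself was at 279, 266 and 271 CPM (counts scaled to the library total) in KMT2D-WT +Glc and at 182 and 184 CPM in KO1 and 323 and 373 CPM in KO2, so its mRNA did not mark the edited cells. In -Glc it was at 231 to 239 CPM in KMT2D-WT and at 145 to 190 CPM in 3 KMT2D-KO libraries, and at 19.9 CPM in the KO1 library of experiment 1, which stood apart. Over 45 genes that separated the lines in +Glc, the -Glc library labelled KO1 of experiment 2 lay a mean 4.56 log2 units from KO1. It lay 0.72 from KO2, so the line labels without glucose are in doubt. Only KO1 of experiment 1 lay near line KO1 (0.84), and both -Glc libraries labelled KO2 lay near KO2 (0.78 and 0.79). The lines were thus unevenly spread over the glucose conditions, and the part of this in comparisons with KMT2D-KO -Glc was not tested. The same -Glc experiment 2 pair of KMT2D-KO libraries, and the matching KMT2D-WT pair, differed far less than other pairs (chi-square per gene of 1.78 and 1.71, against 25.9 to 83.0). The libraries of such a close pair may not be independent, though the tests below count each of them. Of 8 squamous markers 7 were well above 1 CPM at the median and KRT6A was near 0 (median 0.0963 CPM). Of 11 fibroblast, immune and endothelial markers 8 stayed under 1 CPM in all libraries. LUM, COL1A2, PTPRC, CD3E and PECAM1 had a median of 0. However, COL1A2 and CDH5 reached 5.34 and 4.11 CPM in KMT2D-KO +Glc, and CD14 reached 1.10 CPM in KMT2D-WT +Glc. The summed level of these 11 markers was 3.26 to 6.95 CPM in KMT2D-KO +Glc, 2.06 to 2.49 CPM in KMT2D-WT +Glc, 2.72 to 3.51 CPM in KMT2D-KO -Glc and 0.917 to 1.75 CPM in KMT2D-WT -Glc, and its part in the results was not tested.

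All 10 members were detected in all 14 libraries and passed the filter on low counts in all comparisons. In the GRCh38 annotation of the count files PER1 lies at chr17:8140472-8156506, PER2 at chr2:238244044-238290102, ARNTL at chr11:13276652-13387266, CLOCK at chr4:55427903-55546909, NR1D2 at chr3:23945286-23980617 and DBP at chr19:48630030-48637379, and each value is the count over all exons of the gene. Per kilobase of exon, CRY1 was the most abundant by its median over the libraries, at 13.1 CPM per kb, followed by NR1D2 at 10.3, CLOCK at 5.68, CRY2 at 3.45 and PER1 at 3.38. PER2 came next at 2.74 CPM per kb, above NR1D1 at 1.95, ARNTL at 1.59, PER3 at 0.756 and DBP at 0.143 CPM per kb. The ranges of neighbours in this order overlapped over the 14 libraries, with the exception of PER3 (0.604 to 1.18 CPM per kb) and DBP (0.0746 to 0.364). DBP rested on 10 to 105 reads a library, and all other members on at least 74. The repressors PER1, PER2 and CRY2 varied least, since the highest library was 1.85, 1.49 and 1.61 times the lowest. NR1D2 varied most, by 12.4 times, and CLOCK by 4.42 times.

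**Figure D1:**
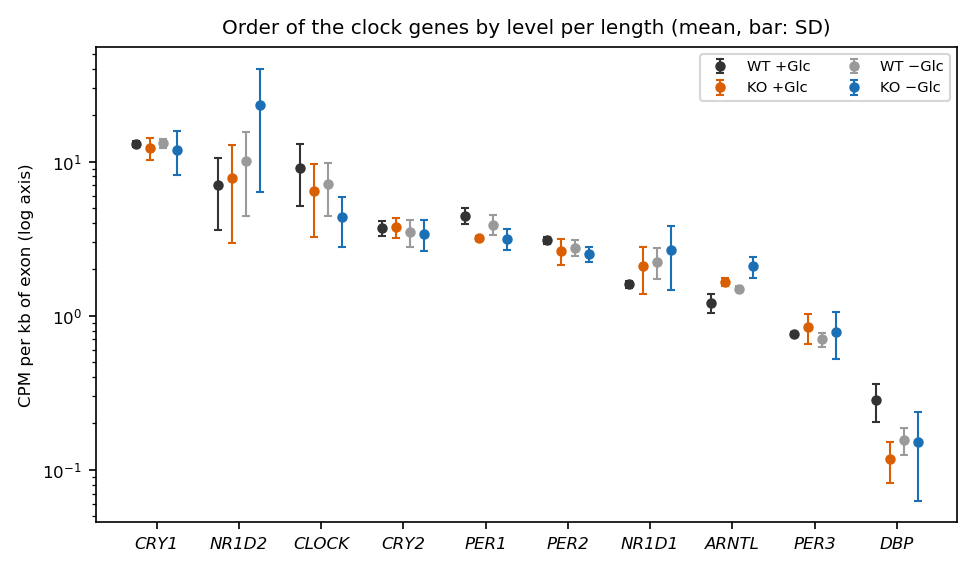
Mean level of each member in CPM per kilobase of exon on a log axis, with the SD as bar, in KMT2D-WT (n = 3) and KMT2D-KO (n = 4) libraries with and without glucose. CRY1 leads the order with a median of 13.1 CPM per kb and DBP ends it at 0.143, and NR1D2 in KMT2D-KO without glucose has the highest mean of all groups, 23.2 CPM per kb with an SD of 16.9.

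CLOCK and NR1D2 depended on the experiment. The experiment 2 mean of CLOCK was 1.89 to 2.49 times that of experiment 1 in each of the 4 groups, and that of NR1D2 was 2.90 to 4.18 times. PER2 differed little, at 0.823 to 1.03 times, and PER1 at 0.783 to 0.939 times. Every comparison below therefore carries experiment as a term, and for the members called between genotypes or glucose conditions the values of both experiments are given beside the pooled ones.

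**Figure D2:**
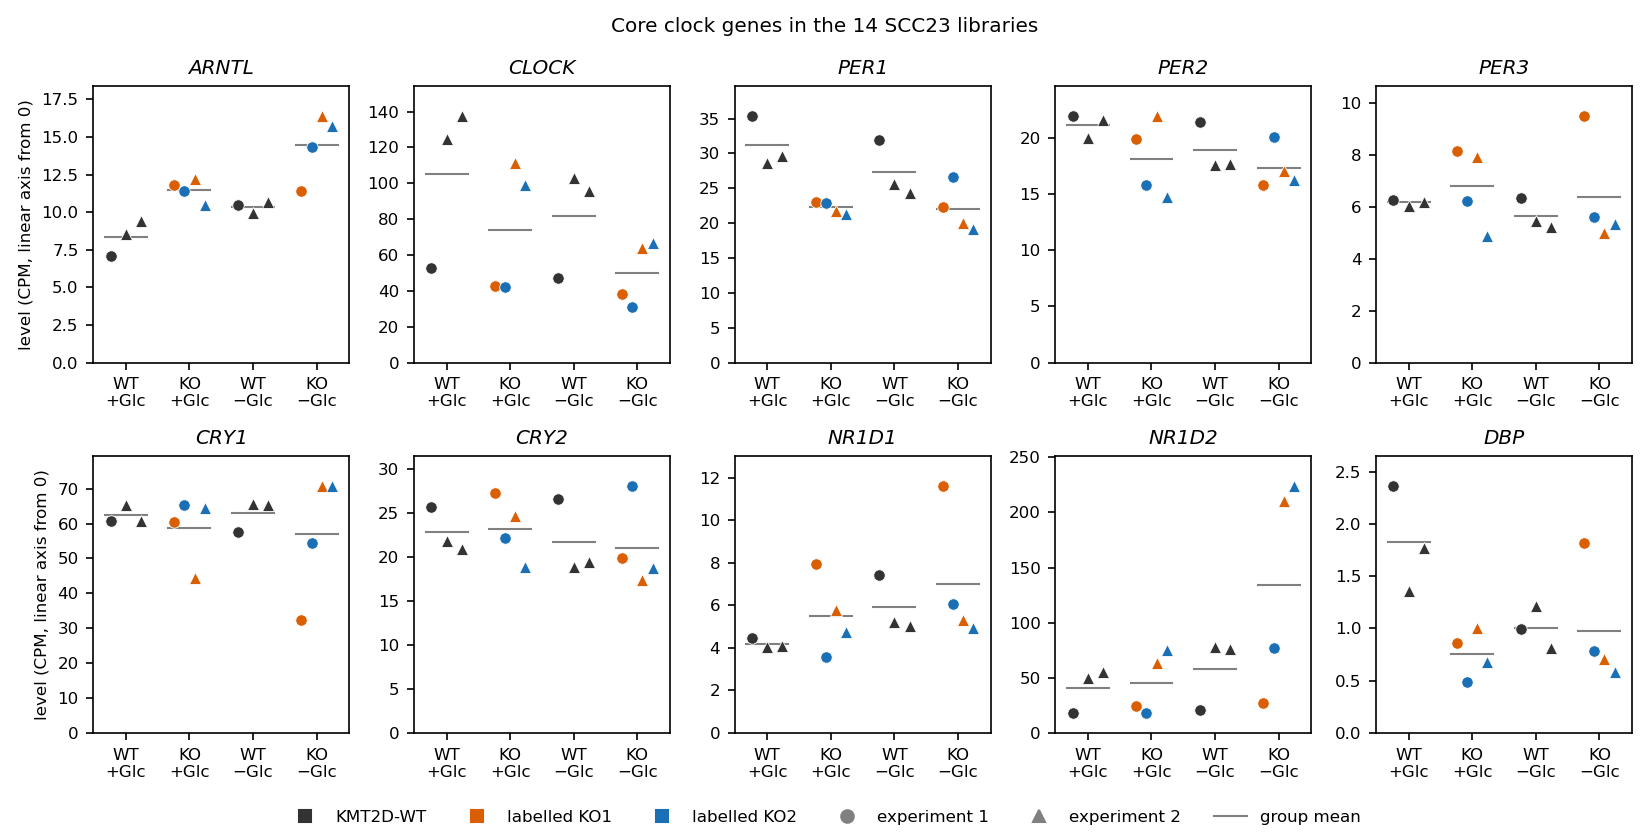
Level of each member in CPM (linear axes that start at 0) in the 14 libraries, by group. Colours give the labelled line, circles experiment 1, triangles experiment 2 and grey lines the group mean. PER1 is lower in all 4 KMT2D-KO +Glc libraries (21.4 to 23.0 CPM) than in the 3 KMT2D-WT +Glc libraries (28.6 to 35.4 CPM), and NR1D2 exceeds 200 CPM in the 2 KMT2D-KO -Glc libraries of experiment 2.

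In glucose, KMT2D-KO cells had less PER1, CLOCK and DBP and more ARNTL than KMT2D-WT cells, whereas PER2 did not pass the test. The edgeR quasi-likelihood test with Benjamini-Hochberg adjustment over all 20423 genes called 1 member higher and 3 lower. Among all genes 13% were called higher and 11.7% lower, and the median log2 fold change of the members was -0.05 against 0.02 over all genes. In bulk RNA fewer cells of a kind and less RNA per cell cannot be told apart.

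PER1, a repressor that clock-resetting signals induce, was at 35.4, 28.6 and 29.7 CPM in KMT2D-WT +Glc. In KMT2D-KO +Glc it was at 23.0 and 22.9 CPM in experiment 1 and 21.8 and 21.4 CPM in experiment 2. The groups did not overlap, and the log2 fold change was -0.50 ± 0.09 (SE, adjusted p = 0.0044 by edgeR). The change was -0.63 in experiment 1 alone and -0.44 in experiment 2 alone, and -0.49 for KO1 and -0.51 for KO2 alone against KMT2D-WT. Without the experiment 1 KMT2D-WT library the fold was -0.45 and the call was lost (edgeR adjusted p = 0.068).

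PER2, the period gene with the E'-box shown above, was at 22.0, 20.0 and 21.6 CPM in KMT2D-WT +Glc. In KMT2D-KO +Glc it was at 20.0 and 22.0 CPM in the KO1 libraries and at 15.8 and 14.8 CPM in the KO2 libraries. One KO1 library lay just below the KMT2D-WT range and the other just above it, and both KO2 libraries lay below it. For both lines together the log2 fold change was -0.22 ± 0.16 (SE, edgeR adjusted p = 0.36). KO2 alone against KMT2D-WT gave -0.48 (edgeR adjusted p = 0.0046) and KO1 alone 0.0002 (edgeR adjusted p = 0.999). The lines themselves are compared further below.

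ARNTL, the partner of CLOCK, was at 7.09, 8.57 and 9.39 CPM in KMT2D-WT +Glc and at 10.5 to 12.2 CPM in KMT2D-KO +Glc. The groups did not overlap, and the log2 fold change was 0.48 ± 0.15 (SE, edgeR adjusted p = 0.042), with 0.71 in experiment 1 alone and 0.33 in experiment 2 alone. This call was narrow: it was lost without any 1 of 6 of the 7 libraries, every one but KO2 of experiment 2, with edgeR adjusted p of 0.065 to 0.29 and folds of 0.33 to 0.55. It was also lost with scaling by library totals alone (0.43, edgeR adjusted p = 0.063) and without the filter on low counts (0.46, edgeR adjusted p = 0.066).

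CLOCK was at 52.8 CPM in KMT2D-WT and 42.6 and 42.3 CPM in KMT2D-KO in experiment 1, and at 125 and 138 CPM against 111 and 99.3 CPM in experiment 2. Within each experiment all KMT2D-KO libraries were below all KMT2D-WT libraries. The log2 fold change was -0.31 ± 0.08 (SE, edgeR adjusted p = 0.027), with -0.32 in experiment 1 alone and -0.33 in experiment 2 alone. The call was lost without any of the 3 KMT2D-WT libraries or without KO2 of experiment 2, with folds of -0.27 to -0.34 and edgeR adjusted p of 0.065 to 0.13.

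DBP, an output gene that encodes a D-box activator, was at 2.36, 1.36 and 1.77 CPM in KMT2D-WT +Glc and at 0.86, 0.48, 1.00 and 0.68 CPM in KMT2D-KO +Glc. The groups did not overlap and the log2 fold change was -1.22 ± 0.32 (SE, edgeR adjusted p = 0.023), with -1.82 in experiment 1 alone and -0.90 in experiment 2 alone. Of all tested genes 9.06% had a change at least as large. Of its exonic bases 10.2% are shared with SPHK2, and reads that fall on both genes were not counted. Leaving out the KMT2D-WT library of experiment 1 gave -0.90 (edgeR adjusted p = 0.20), leaving out WT2 of experiment 2 gave -1.22 (edgeR adjusted p = 0.085) and leaving out KO2 of experiment 2 gave -1.15 (edgeR adjusted p = 0.053), and each ended the call.

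Among the repressors that did not pass in glucose, NR1D2 came closest, with a log2 fold change of 0.35 ± 0.11 (SE, edgeR adjusted p = 0.054; DESeq2 adjusted p = 0.035). It was at 18.1 CPM in KMT2D-WT and 24.3 and 18.4 CPM in KMT2D-KO in experiment 1, and at 49.7 and 55.1 CPM against 63.9 and 75.2 CPM in experiment 2. NR1D1, its closest relative, gave 0.37 ± 0.25, PER3 gave 0.12 ± 0.20, CRY1 gave -0.11 ± 0.13 and CRY2 gave a value within 0.01 of 0. The last 3 lay within 1 SE of 0. Without the experiment term 0 members were called in glucose by edgeR, against 4 with it, and experiment 2 alone also called 0. Experiment 1 alone had no KMT2D-WT replicate with glucose, so it could not decide the calls.

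**Figure D3:**
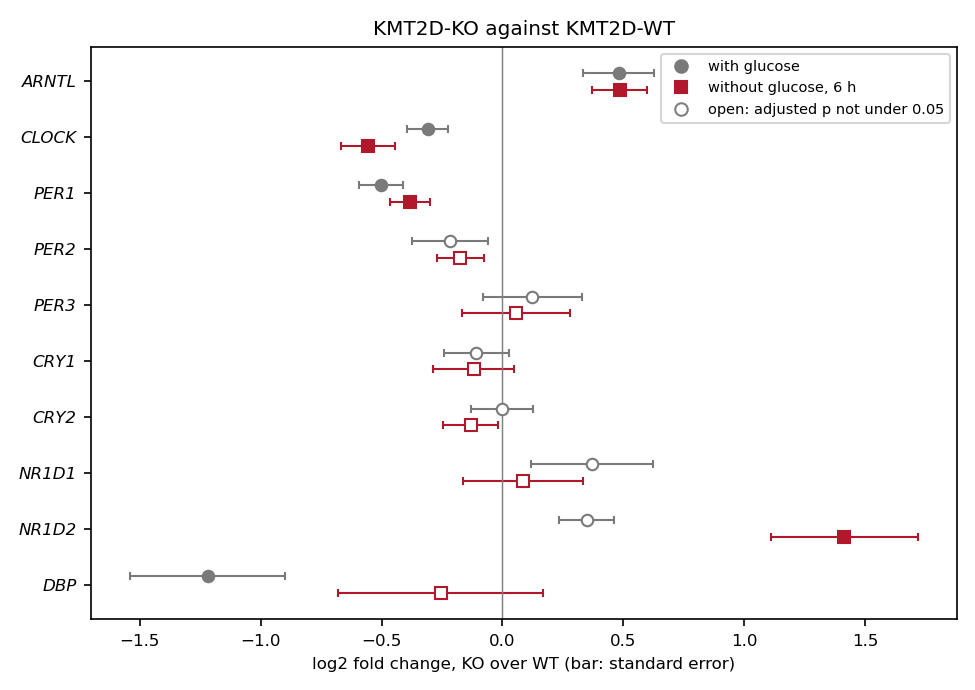
Log2 fold change of KMT2D-KO over KMT2D-WT for each member with its standard error, with glucose (grey circles) and after 6 h without it (red squares), filled where the edgeR adjusted p was under 0.05. PER1, CLOCK and ARNTL are filled in both conditions, DBP with glucose (-1.22) and NR1D2 without it (1.41), and the change between the conditions passed the test for neither.

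After 6 h without glucose, PER1 and CLOCK were again lower and ARNTL higher in KMT2D-KO cells, and NR1D2 was higher by the largest margin of any member. Of the 10 members 2 were called higher and 2 lower, while among all 16782 genes tested 25.9% were called higher and 24.9% lower. The median log2 fold change of the members was -0.13, against 0.003 over all genes.

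NR1D2, the REV-ERB beta repressor of ARNTL, was at 20.4 CPM in the KMT2D-WT library of experiment 1 and at 77.5 and 76.3 CPM in those of experiment 2. In KMT2D-KO -Glc it was at 27.1 CPM in KO1 and 76.8 CPM in KO2 in experiment 1, and at 211 and 224 CPM in experiment 2. Within each experiment all KMT2D-KO libraries were above all KMT2D-WT libraries, the KO1 library of experiment 1 by the least. The log2 fold change was 1.41 ± 0.30 (SE, edgeR adjusted p = 0.0077), and 11.6% of all genes had a change at least as large. It was 1.35 in experiment 1 alone and 1.45 in experiment 2 alone. Without the KO1 library of experiment 1, whose KMT2D level stood apart, it was 1.54. That library was the only KMT2D-KO -Glc library near line KO1, so how far the rise holds in that line was not tested. The fold was 1.43 without the library labelled KO1 of experiment 2. Its close pair, the KO2 library, stayed in that fit, so the value does not bear on the line label.

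PER1 was at 31.9, 25.7 and 24.3 CPM in KMT2D-WT -Glc and at 22.3, 26.6, 20.1 and 19.1 CPM in KMT2D-KO -Glc. The groups overlapped across the experiments but not within either. The log2 fold change was -0.38 ± 0.08 (SE, edgeR adjusted p = 0.0079), with -0.38 and -0.40 in experiments 1 and 2 alone and -0.35 without the KO1 library of experiment 1.

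CLOCK was at 47.0 CPM in KMT2D-WT and 38.2 and 31.1 CPM in KMT2D-KO in experiment 1, and at 103 and 95.8 CPM against 64.1 and 66.9 CPM in experiment 2. Its log2 fold change was -0.56 ± 0.11 (SE, edgeR adjusted p = 0.0059), with -0.44 and -0.65 in the experiments alone and -0.64 without the KO1 library of experiment 1. ARNTL, at 10.5, 9.95 and 10.7 CPM in KMT2D-WT and 11.4, 14.3, 16.4 and 15.7 CPM in KMT2D-KO, moved the other way. Its log2 fold change was 0.48 ± 0.11 (SE, edgeR adjusted p = 0.011), with 0.30 and 0.60 in the experiments alone, and the groups did not overlap. The call of ARNTL ended without WT1 (0.42, edgeR adjusted p = 0.061), without WT2 (0.48, edgeR adjusted p = 0.051) or without the library labelled KO1 (0.45, edgeR adjusted p = 0.051), all of experiment 2.

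PER2 was at 21.5, 17.7 and 17.7 CPM in KMT2D-WT -Glc and at 15.8, 20.1, 17.1 and 16.3 CPM in KMT2D-KO -Glc. The groups overlapped, and the log2 fold change was -0.17 ± 0.10 (SE, edgeR adjusted p = 0.17). DBP, which was lower in KMT2D-KO with glucose, overlapped here at 0.81 to 1.21 CPM against 0.59 to 1.82 CPM, with -0.26 ± 0.42 (SE). PER3, CRY1, CRY2 and NR1D1 had log2 fold changes of 0.06, -0.12, -0.13 and 0.08, each with an edgeR adjusted p of 0.37 or more. With the close pairs of experiment 2 summed into 1 library each, or without the experiment term, edgeR called 0 of the 10 members, with NR1D2 at 1.41 and 1.17 (edgeR adjusted p of 0.093 and 0.29). Scaling by library totals alone shifted the median of all genes by -0.25, and under it ARNTL was at 0.23 (edgeR adjusted p = 0.14) while PER2 (-0.43, edgeR adjusted p = 0.011) and CRY2 (-0.39, edgeR adjusted p = 0.032) passed, all to be read against that shift.

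The change in the KMT2D-KO effect between the glucose conditions was then tested directly over the 14 libraries. NR1D2 had the largest difference, 1.10 ± 0.35 on the log2 scale (SE, edgeR adjusted p = 0.063), followed by DBP at 0.98 ± 0.54 (SE, edgeR adjusted p = 0.26). By edgeR 0 of the 10 members passed, where 4.73% of the 18678 genes tested passed in the higher and 6.54% in the lower direction. At an unadjusted edgeR p under 0.05 NR1D2 alone remained, and DESeq2 called it (adjusted p = 0.014). The difference of NR1D2 was 1.07 in experiment 1 alone and 1.11 in experiment 2 alone, and it ranged from 0.83 to 1.29 as single libraries were left out. It passed without the KO1 -Glc library of experiment 1 (1.29, edgeR adjusted p = 0.00027). It also passed without KO2 -Glc of experiment 1 (0.83, edgeR adjusted p = 0.033). Since the lines were unevenly spread over the glucose conditions, a difference between lines cannot be told apart from this one. PER2 gave 0.07 ± 0.20 (SE), PER1 gave 0.15 ± 0.13 and ARNTL gave 0.03 ± 0.19, so no difference of these 3 was detectable at this spread.

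Glucose deprivation itself was compared within each genotype, over libraries that the comparisons above also use. NR1D2 rose and CLOCK fell in both KMT2D-WT and KMT2D-KO cells, and the other 8 members did not pass. In KMT2D-WT cells 1 member was called higher and 1 lower, where 7.15% and 7.58% of 17227 genes were. In KMT2D-KO cells the members' counts were again 1 and 1, where 14% and 16% of 16057 genes were called.

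In KMT2D-WT cells NR1D2 gave a log2 fold change of 0.45 ± 0.09 (SE, edgeR adjusted p = 0.038). The -Glc level was 1.13 times that with glucose in experiment 1 and 1.47 times in experiment 2. For KMT2D-KO cells the log2 fold change of NR1D2 was 1.44 ± 0.30 (SE, edgeR adjusted p = 0.012). The ratio there was 1.11 in KO1 and 4.17 in KO2 of experiment 1 and 3.12 between the means of experiment 2. The library with the small ratio is the one whose KMT2D stood apart, and without it the fold was 1.71 (edgeR adjusted p = 0.00051). That library was also the only KMT2D-KO -Glc library near line KO1 by the 45 line genes. A difference between the lines thus cannot be told apart here from the glucose effect in KMT2D-KO cells.

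CLOCK gave -0.32 ± 0.08 (SE, edgeR adjusted p = 0.048) in KMT2D-WT and -0.51 ± 0.12 (SE, edgeR adjusted p = 0.016) in KMT2D-KO cells. Its -Glc level was 0.890 times that with glucose in experiment 1 and 0.757 times in experiment 2 in KMT2D-WT cells, and 0.897, 0.736 and 0.622 times in KO1, KO2 and the KMT2D-KO means of experiment 2. All 5 ratios were below 1. In KMT2D-WT cells the calls of CLOCK and NR1D2 both ended without any 1 of the 4 libraries of experiment 2, at folds of -0.26 to -0.34 for CLOCK and 0.36 to 0.45 for NR1D2, with edgeR adjusted p of 0.0996 to 0.21. In KMT2D-KO cells the call of CLOCK ended without either -Glc library of experiment 2 (-0.43 and -0.48, edgeR adjusted p of 0.095 and 0.069). Experiment 2 was read as pairs with glucose and as single mates without it. The part of this in the glucose comparisons was not tested. Halving the paired counts left NR1D2 at 0.45 and 1.45 and CLOCK at -0.32 and -0.51. That step rescales whole libraries, which normalization largely takes out again, so it could not decide the matter.

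PER2 gave -0.16 ± 0.08 (SE, edgeR adjusted p = 0.20) on glucose deprivation in KMT2D-WT and -0.09 ± 0.17 (SE, edgeR adjusted p = 0.70) in KMT2D-KO cells. PER1 gave -0.19 ± 0.06 and -0.05 ± 0.11, and ARNTL 0.33 ± 0.13 and 0.31 ± 0.15. NR1D1 was at 0.48 ± 0.15 in KMT2D-WT cells (SE, edgeR adjusted p = 0.078) and DBP at -0.82 ± 0.29 (SE, edgeR adjusted p = 0.099). Of the NR1D1 exonic bases 18.0% are shared with THRA, and for PER3 16.7% are shared with neighbours, so their counts miss reads that fall there. Without the experiment term edgeR called 0 members in either genotype. Experiment 1 alone called 0 in KMT2D-KO cells. It had no KMT2D-WT replicate in either glucose condition, so it could not decide calls in KMT2D-WT cells.

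**Figure D4:**
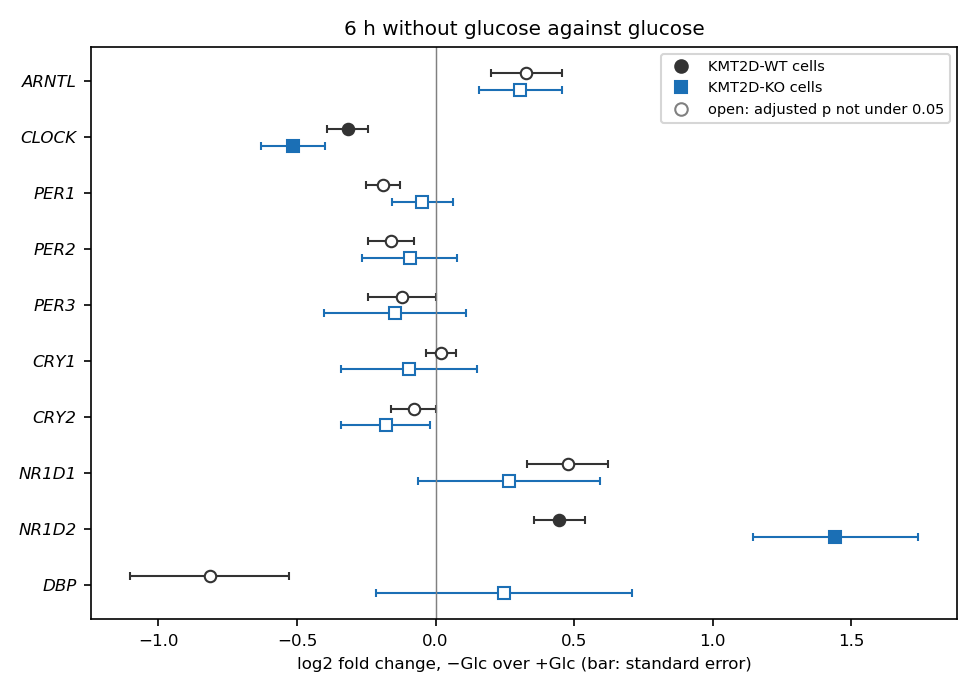
Log2 fold change of 6 h without glucose over glucose for each member with its standard error, in KMT2D-WT (black circles) and KMT2D-KO cells (blue squares), filled where the edgeR adjusted p was under 0.05. NR1D2 (0.45 and 1.44) and CLOCK (-0.32 and -0.51) are filled in both genotypes and all other members are open.

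The 2 KMT2D-KO lines differed from each other in glucose, and PER2 was among the genes that did. PER2 was at 20.0 and 22.0 CPM in KO1 and at 15.8 and 14.8 CPM in KO2, a log2 difference of KO1 over KO2 of 0.46 ± 0.13 (SE, edgeR adjusted p = 0.019). PER3 was at 8.17 and 7.95 CPM in KO1 and at 6.24 and 4.90 CPM in KO2, with 0.55 ± 0.18 (SE, edgeR adjusted p = 0.0496). CRY1 went the other way, at 60.4 and 44.3 CPM in KO1 and at 65.3 and 64.4 CPM in KO2, with -0.34 ± 0.11 (SE, edgeR adjusted p = 0.044). Thus 2 members were called higher and 1 lower in KO1, where 7.32% and 7.4% of 21850 genes were called. CRY2 (0.33) and NR1D1 (0.64) missed the threshold at edgeR adjusted p of 0.059 and 0.054, and PER1 (0.01) and NR1D2 (0.02) lay near 0.

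Each line had 1 library in each experiment, so these differences rest on 4 libraries. The 3 KMT2D-WT +Glc libraries were part of the fit and shared in its estimate of the spread. For PER2 the call ended without KO2 of experiment 1 (0.52, edgeR adjusted p = 0.069), KO1 of experiment 2 (0.32, edgeR adjusted p = 0.34) or KO2 of experiment 2 (0.38, edgeR adjusted p = 0.31). PER3 lost its call without any 1 of the 4 (0.36 to 0.70, edgeR adjusted p of 0.074 to 0.51). CRY1 lost it without any but KO1 of experiment 1, at -0.39 without KO2 of experiment 1, -0.11 without KO1 of experiment 2 and -0.29 without KO2 of experiment 2 (edgeR adjusted p of 0.13 to 0.70). Without the experiment term edgeR called 0 members, with 11 genes called in all. With the 4 KMT2D-KO libraries fitted alone it called 5 members. In that fit 4574 of 19041 genes tested were called, against 3215 of 21850 in the main fit.

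The genes whose level followed that of PER2 most closely over the 14 libraries were FYN, SAMD4B, FOXK2, ZNF592 and FURIN. Likeness was measured as the root mean square difference of log2 CPM after each gene was centred on its own mean, which was 0.11 for FYN and 0.14 for FURIN, against a median of 0.53 over 14267 genes. PER2 itself varied with an SD of 0.20 on the log2 scale. Among the other members CRY2 ranked 21 at 0.16 and PER1 ranked 60 at 0.18, while NR1D2 ranked 12942 at 1.21. Small values are shared by genes that vary little, since PER2 varied little.

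Beyond the core genes, other genes of the wider clock were read from 5 lists. Of the activators ARNTL2, a paralogue of ARNTL, was at 18.4 to 20.3 CPM per kb by group mean, against 1.20 to 2.09 CPM per kb for ARNTL, while NPAS2 and RORB were too low to test. RORA, a factor that activates through ROR elements, was at 3.17 to 4.41 CPM in KMT2D-WT -Glc and 6.06 to 9.25 CPM in KMT2D-KO -Glc. The groups did not overlap and its log2 fold change was 1.08 ± 0.14 (SE, edgeR adjusted p = 0.0011). ARNTL2 passed between the lines (0.43 ± 0.09 higher in KO1, edgeR adjusted p = 0.0030), so that of the 2 testable activators 0 were called between genotypes with glucose and 1 without it, where 24.7% and 50.8% of all genes were called in either direction.

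NFIL3, the repressor that competes with DBP for D-boxes, was higher in KMT2D-KO cells in both conditions. It was at 6.29 to 7.78 CPM in KMT2D-WT +Glc and 10.3 to 13.5 CPM in KMT2D-KO +Glc, and at 8.61 to 10.4 CPM and 13.9 to 33.9 CPM without glucose. Its log2 fold change was 0.76 ± 0.12 (SE, edgeR adjusted p = 0.0026) with glucose and 1.54 ± 0.24 (SE, edgeR adjusted p = 0.0019) without it. It also rose on glucose deprivation, by 0.43 ± 0.10 in KMT2D-WT and 1.18 ± 0.23 in KMT2D-KO cells (SE, edgeR adjusted p of 0.049 and 0.0099). As for NR1D2, the KO1 library of experiment 1, the one near line KO1, was the lowest of the KMT2D-KO -Glc libraries. NFIL3 was the 1 repressor or PAR bZIP gene called between genotypes, out of 6 tested with glucose and 5 without. Of all genes 24.7% and 50.8% were called in either direction. The median log2 fold change of the list was 0.36 and 0.18, against 0.02 and 0.003 over all genes.

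The list of kinases and ubiquitin ligases that act on clock proteins also held USP2, which removes ubiquitin. Its genes moved in both directions, and USP2 was among those called lower in KMT2D-KO cells in both conditions. With glucose 3 of 8 were called higher and 3 lower in KMT2D-KO cells (median log2 fold change 0.15), and without it again 3 higher and 3 lower (median -0.06). Of all genes 13% and 11.7% were called higher and lower with glucose and 25.9% and 24.9% without it. CSNK1E, the casein kinase that phosphorylates PER proteins, was at 132 to 200 CPM in KMT2D-WT and 60.4 to 103 CPM in KMT2D-KO +Glc. Its log2 fold change was -1.11 ± 0.16 with glucose and -1.10 ± 0.06 without it (SE, edgeR adjusted p of 0.0013 and 5.43e-05). CSNK1D, its close relative, had 0.40 ± 0.08 in glucose, CSNK2A1 had 0.68 ± 0.07 with and 0.97 ± 0.07 without glucose, and BTRC, a PER ubiquitin ligase subunit, had -0.37 ± 0.09 with and -0.73 ± 0.14 without glucose. CSNK2A2 had 0.28 with glucose (edgeR adjusted p = 0.033) and 0.81 ± 0.10 without it (SE, edgeR adjusted p = 0.00089).

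Of the 5 clock-controlled output genes, 2 were called higher and 1 lower in KMT2D-KO cells with glucose and 4 higher and 0 lower without it. The same shares of all genes apply, 13% and 11.7% with glucose and 25.9% and 24.9% without it. TSC22D3, which glucocorticoids also induce, was at 1.37 to 2.15 CPM in KMT2D-WT and 5.88 to 9.73 CPM in KMT2D-KO +Glc, and at 1.66 to 2.12 CPM and 12.6 to 16.0 CPM without glucose. Its log2 fold change was 2.15 ± 0.26 and 2.83 ± 0.16 (SE, edgeR adjusted p of 0.00054 and 5.43e-05). KLF9 was at 0.118 to 0.203 CPM against 1.02 to 2.15 CPM in glucose, with 3.36 ± 0.40 (SE, edgeR adjusted p = 0.00051). KLF10 fell on glucose deprivation in both genotypes, by 0.90 in KMT2D-WT and 0.71 in KMT2D-KO cells on the log2 scale (edgeR adjusted p of 0.017 and 0.017). NAMPT and WEE1 were called without glucose, at 0.38 ± 0.12 and 0.79 ± 0.25, and KMT2D-KO effects on them were not shown to differ between the conditions.

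The genes linked to the CRE, through which signals reset the PER genes, gave the largest changes of these lists on glucose deprivation. DUSP1, a phosphatase of MAP kinases, was at 47.4 to 61.2 CPM in KMT2D-WT +Glc and 111 to 149 CPM without glucose, and at 15.4 to 26.4 CPM and 195 to 360 CPM in KMT2D-KO cells. It rose by 1.20 ± 0.09 in KMT2D-WT and 3.52 ± 0.15 in KMT2D-KO cells on the log2 scale (SE, edgeR adjusted p of 0.015 and 7.95e-05). The difference between the genotypes was 2.34 ± 0.20 (SE, edgeR adjusted p = 6.90e-05), which 2.17% of all genes matched or passed in size. SIK1, a kinase that restrains CRE signalling, rose by 2.73 ± 0.42 in KMT2D-WT and 2.36 ± 0.59 in KMT2D-KO cells (SE, edgeR adjusted p of 0.024 and 0.023). CRTC1, a CREB coactivator, fell in both (-0.49 ± 0.09 and -0.83 ± 0.20), and EGR1, an immediate early factor, was lower in KMT2D-KO cells, at -1.90 with and -1.30 without glucose on the log2 scale (edgeR adjusted p of 0.00026 and 0.023). FOSB passed in KMT2D-KO cells without glucose (1.81 ± 0.54), where it was at 17.9 CPM in the KO1 library of experiment 1 and at 2.59 to 2.89 CPM in the other 3. In KMT2D-WT cells 3 of the 11 genes were called higher and 2 lower, and in KMT2D-KO cells 4 higher and 1 lower, with medians of -0.21 and 0.25, against 0.01 and 0.005 over all genes. Of all genes 7.15% and 7.58% were called higher and lower in KMT2D-WT and 14% and 16% in KMT2D-KO cells. PER1 and PER2, themselves targets of CREB, are not among the genes that passed on glucose deprivation.

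**Figure D5:**
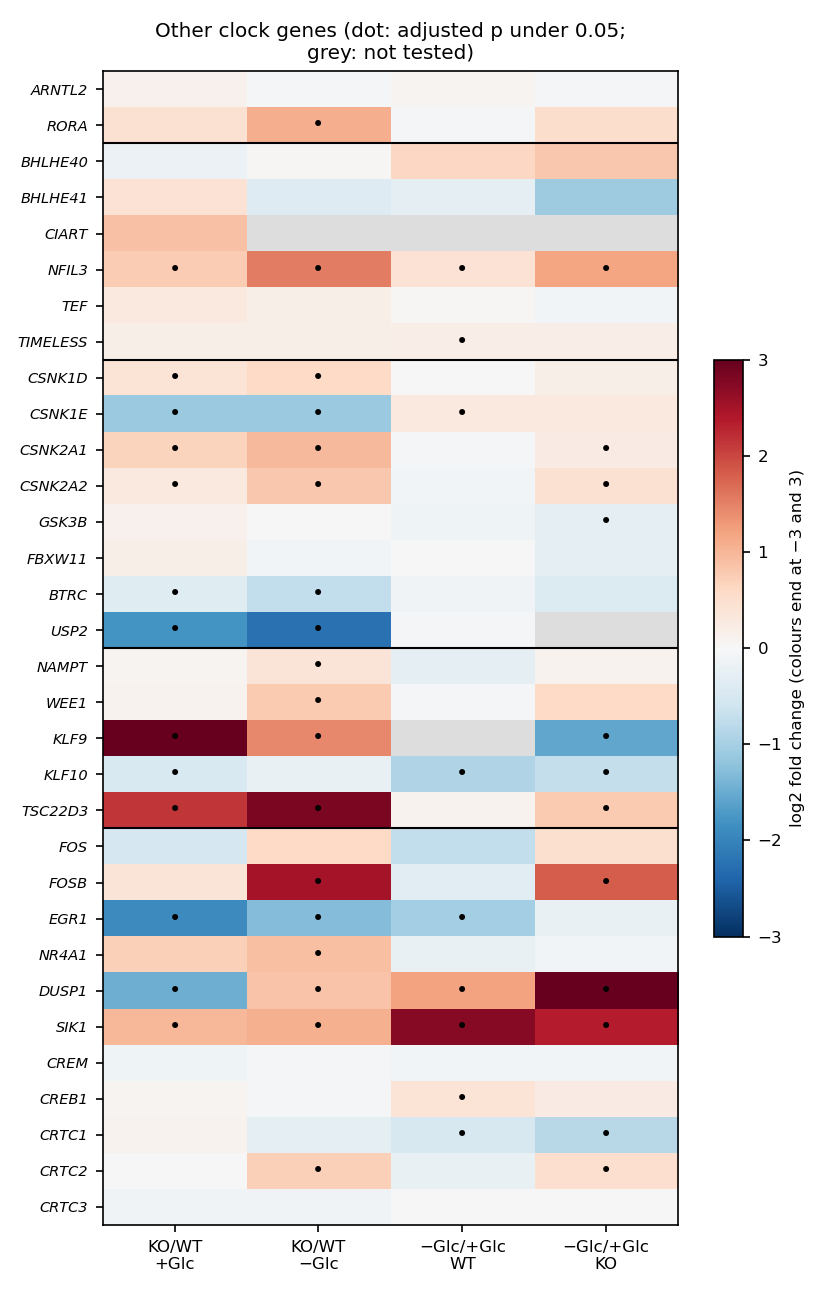
Log2 fold change of the other clock genes that could be tested, in 4 comparisons, from blue (lower) to red (higher), with a dot where the edgeR adjusted p was under 0.05 and grey where a gene was not tested. Lines part the activators, the repressors and PAR bZIP factors, the kinases and ubiquitin enzymes, the outputs and the CRE-linked genes. NFIL3 carries a dot in all 4 columns, and DUSP1 rises on glucose deprivation by 1.20 in KMT2D-WT and 3.52 in KMT2D-KO cells.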

How the data were processed

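Poly(A) RNA of SCC23 cells was sequenced in 14 libraries. Per the file headers the authors deposited raw read counts per gene name, made with featureCounts 2.0.3 on the Ensembl 102 annotation of GRCh38, without strand, from primary alignments; HISAT2 was the aligner. Reads that overlap exons of more than 1 gene were not counted. Libraries were grouped by their labels, which do not say whether libraries of a group came from separate cultures, so p-values measure the spread between these libraries, which may be technical.

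Counts were tested in R 4.3.3 with the quasi-likelihood test of edgeR 4.0.16 after filterByExpr (minimum count 10) and TMM normalization, with Benjamini-Hochberg adjustment over all genes tested (threshold 0.05). The experiment number was a term in each fit, as the labels mark shared experiments: differences between experiments 2 and 1 correlated between KMT2D-WT and KMT2D-KO at 0.95 with and 0.86 without glucose. The authors' methods name DESeq2 with no covariate; DESeq2 1.42.0 was an alternative. CPM used library totals scaled by TMM factors over the 14 libraries. The log2 CPM used for likeness and Dixon's test had a prior count of 2. Standard errors are the log2 fold change divided by the root of its F statistic. The script was tested on simulated data.

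Other alternatives were RLE size factors, library totals, no filter, no experiment term, halved paired counts, each experiment or line alone, summed close pairs, 1 fit of all libraries, and each library left out. Named genes were the members, KMT2D, per list and comparison up to 4 called genes with the largest change and a mean of at least 1 CPM, and the 5 genes most like PER2. The members and lists were chosen with earlier results of these data known, and some genes of the lists are not reported here. Depth limits DBP, and intervals cover the spread between libraries only. Other assays of the study were not analysed here.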

Additional observations from a re-analysis of the deposited data

Results flagged for a closer look

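KMT2D in the KMT2D-KO -Glc group was set apart by 1 library, KO1 of experiment 1 at 19.9 CPM. On the log2 CPM scale, on which Dixon's test was run, the gap to the next library took 0.88 of the range of the 4 libraries. This ratio was above the critical value. Among the members KO1 of experiment 1 was the lowest of its group for NR1D2, PER2, CRY1 and ARNTL. It was the highest for PER3, NR1D1 and DBP. The 10 members and KMT2D were screened in both groups of 4, 22 tests in all, and 1 was flagged, where chance flags about 1 in 20. The cause was not tested.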

How the results depend on the processing

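Limits: calls rested on 3 KMT2D-WT and 4 KMT2D-KO libraries a condition, DBP on at most 105 reads, and the -Glc line labels are in doubt. Without glucose the experiment 2 libraries of each genotype were a close pair that may not be independent. Calls that use these libraries, in experiment 2 alone above all, may thus count too many replicates. Each value below is a log2 fold change or a count of calls at an adjusted p under 0.05, by edgeR unless named; where a direction turned, neither value passed the test, and the cause of these changes was not tested. Without the replicate block (no experiment term), genes called fell to 971 for KMT2D-KO against KMT2D-WT with glucose, 3659 without glucose, 70 for the difference between conditions, 2 and 1465 for glucose deprivation in KMT2D-WT and KMT2D-KO cells and 11 between the lines, with 0 members called in all 6 comparisons. In the same fits CRY2 turned to 0.032 with glucose, PER3 and CRY1 to 0.026 and -0.050 in the difference, and NR1D2 to -0.091 between the lines. The replicate block was thus needed for all calls of members.

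In experiment 1 alone 304 genes and 0 members were called with glucose, and 0 genes and 0 members in the other comparisons where it was fitted. CRY1 turned to 0.046 with glucose, DBP to 0.38 without it, PER3, CRY1 and ARNTL to 0.030, -0.49 and -0.44 in the difference, PER3, CRY1 and CRY2 to 0.016, -0.074 and 0.053 on deprivation in KMT2D-WT cells, and PER1 and PER3 to 0.051 and 0.031 in KMT2D-KO cells. In experiment 2 alone 2336 genes and 0 members were called with glucose, 12888 genes without it, 1 member (NR1D2) in the difference, and 8960 and 9743 genes on deprivation in KMT2D-WT and KMT2D-KO cells. CRY2 turned to 0.014 with glucose, PER3, CRY1 and NR1D1 to -0.090, 0.065 and -0.050 without it, and CRY1, NR1D1 and DBP to 0.36, -0.057 and -0.40 on deprivation in KMT2D-KO cells. With the close pairs summed, 2785 genes and 0 members were called without glucose.

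DESeq2 called 3473 genes and 1 member (NR1D2) in the difference and 6213 genes on deprivation in KMT2D-WT cells, with CRY2 at 0.0071 with glucose and PER1 at 0.021 on deprivation in KMT2D-KO cells. RLE size factors gave CRY2 at 0.0071 and PER1 at 0.023 in the same places, and 1 member (NR1D2) called in the difference and 1 (NR1D2) on deprivation in KMT2D-WT cells. Library totals alone gave 1 and 1 as well, CLOCK in both, with PER3 and NR1D1 at -0.20 and -0.17 without glucose and PER1, PER2, CRY1 and ARNTL at -0.080, -0.16, -0.21 and -0.20 in the difference; they moved the median of all genes by -0.25 without glucose, -0.23 in the difference and -0.20 on deprivation in KMT2D-KO cells. They also changed the split of higher against lower genes to 2726 and 6295 without glucose, 264 and 2402 in the difference and 1005 and 3893 on deprivation in KMT2D-KO cells, from 4342 and 4179, 884 and 1221, and 2240 and 2573. Without the filter 1 member (NR1D2) was called in the difference and 5560 genes on deprivation in KMT2D-WT cells. Halved paired counts put CRY2 at 0.0091 with glucose and called 5 members and 3372 genes between the lines. The 4 KMT2D-KO libraries alone called 5 members and 4574 genes there. KO1 alone put PER2 and CRY2 at 0.0002 and 0.16 with glucose, and KO2 alone PER3 and CRY1 at -0.19 and 0.070.

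With single libraries left out, genes called ranged from 2142 to 5048 with glucose, 788 to 4230 in the difference, 0 to 8747 and 1991 to 6553 on deprivation in KMT2D-WT and KMT2D-KO cells and 1094 to 3974 between the lines. Members called ranged from 0 to 4, 0 to 1, 0 to 2, 1 to 3 and 0 to 5 in the same order, and from 3 to 4 without glucose. With glucose CRY1 ranged from -0.23 to 0.049, CRY2 from -0.11 to 0.086 and PER3 from -0.069 to 0.30. Without it CRY1 ranged from -0.22 to 0.056, DBP from -0.70 to 0.013, NR1D1 from -0.13 to 0.20 and PER3 from -0.12 to 0.14. In the difference ARNTL ranged from -0.062 to 0.17, CRY1 from -0.14 to 0.23, CRY2 from -0.19 to 0.0069, PER2 from -0.052 to 0.24 and PER3 from -0.22 to 0.15. On deprivation CRY1 ranged from -0.030 to 0.063 in KMT2D-WT cells, and in KMT2D-KO cells CRY1 from -0.30 to 0.14, DBP from -0.16 to 0.49, NR1D1 from -0.005 to 0.44, PER2 from -0.20 to 0.046 and PER3 from -0.35 to 0.049. Between the lines ARNTL ranged from -0.066 to 0.30, NR1D2 from -0.20 to 0.33 and PER1 from -0.072 to 0.080.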
